A study of Drosophila melanogaster with 6 samples.

Results

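Transcripts of the proteasome were followed in whole larvae of the last larval stage of *Drosophila melanogaster*. All genes of the deposited table of normalized counts were taken whose symbol begins with Prosalpha, Prosbeta, Rpn or Rpt and a subunit number, which gave 47 of 17606 genes. An R or a T after the subunit number marks a paralog, a second gene for the same position in the complex. There were 15 such paralogs, and the other 32 genes are the widely expressed subunits. A subunit whose paralog is measured here is called its parent.

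The control *w1118*, a strain with a mutation in the *white* eye colour gene, was compared with larvae homozygous for *ecd1*, a temperature-sensitive allele of *ecdysoneless*. Larvae of both genotypes spent 10 days at 18°C followed by 2 days at 29°C, and total RNA of 8 pooled larvae made 1 sample, with 3 biological replicates per genotype. No source states whether the larvae were male or female, and larvae kept at 18°C throughout were not analysed here. *ecd* itself carries a point mutation and its RNA does not check the genotype. It stood at 2085, 1563 and 1565 normalized counts in *w1118* and at 2111, 2218 and 2397 in *ecd1*.

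The 26S proteasome degrades proteins tagged with ubiquitin. Its core is a barrel of stacked rings, the outer rings made of alpha subunits, which gate the entrance, and the inner rings of beta subunits, some of which cut the protein chain. The regulatory particle caps the barrel. Its base holds the Rpt ATPases, which unfold substrates, and several Rpn subunits, and its lid holds further Rpn subunits, among them the deubiquitinase Rpn11. In *Drosophila*, many subunits have paralogs known for expression in the male germline, where spermatocytes and spermatids use a proteasome of altered composition. No testis sample was measured here, so the name testis paralog rests on this background and on the symbols.

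The reads recovered from the table came to between 74581798 and 118102006 per sample. Fold changes are differences of log2(normalized count + 1), *ecd1* minus *w1118*, tested with limma. The test covered the 12930 genes whose normalized count averaged 10 or more, and a gene was called at an adjusted p below 0.05. All 47 members passed this filter in the 6 samples. The insert size was 161.5 ± 1.37 bases in *w1118* and 138.7 ± 0.503 in *ecd1* (SD, n = 3) and did not overlap, so insert size and genotype cannot be told apart. Salivary glue genes, made late in larval life, summed to 642244 normalized counts in *w1118* replicate 1 and to between 140 and 479 in the other 5 samples.

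Most testis paralogs were lower in *ecd1* larvae, whereas 31 of the 32 widely expressed subunits were not called in either direction. Of the 15 paralogs, 14 fell and 0 rose, where 19.1% of all genes tested fell and 16.0% rose. Rpt4R did not pass the test. A decrease of at least 2-fold was called for 13 paralogs, against 14.7% of all genes. Every *ecd1* sample lay below every *w1118* sample in 14 paralogs, against 26.9% of all genes. The median log2 fold change of the paralogs was −1.91, and that of all genes tested was 0.01. At an unadjusted p below 0.05 in limma, 15 paralogs fell and 0 rose. The share of all genes was not taken at unadjusted thresholds, here or below. On recovered reads, edgeR's quasi-likelihood test called 13 as fallen and 0 as risen, against 18.5% and 17.4% of all genes. DESeq2 called 15 and 0, against 22.7% and 19.7%. In bulk samples, fewer cells of a type and less RNA per cell cannot be told apart.

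**Figure D1:**
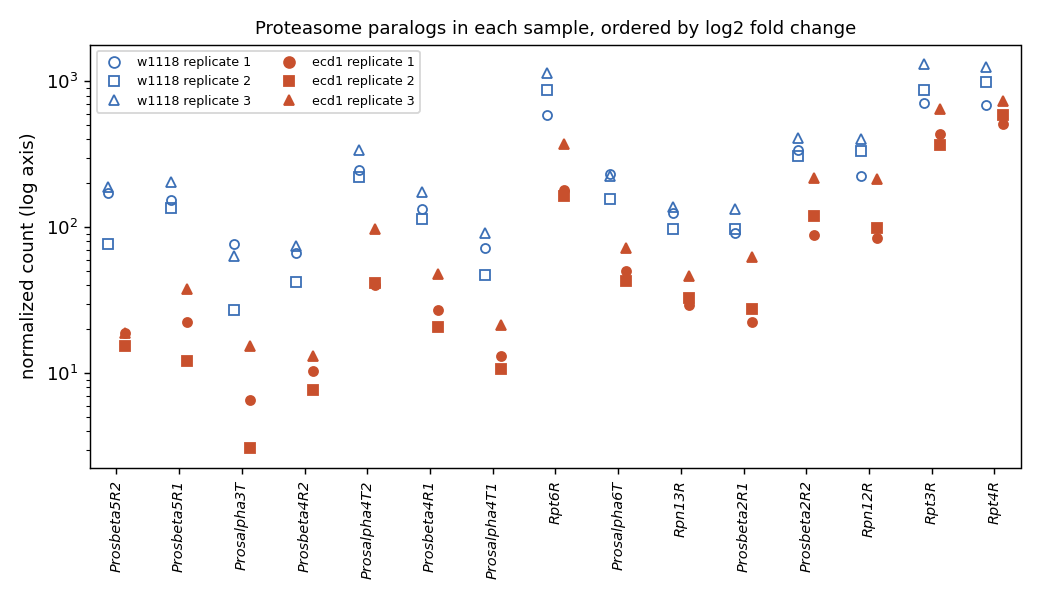
Normalized counts (log axis) of the 15 paralogs in each of the 3 *w1118* and 3 *ecd1* samples, 1 point per sample, ordered by log2 fold change. The *ecd1* points lie below the *w1118* points in 14 paralogs, and those of Rpt4R overlap.

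The paralogs of beta5, the ring position with chymotrypsin-like activity, showed the lowest fold changes in the limma fit of all 6 samples, and *Prosalpha3T* was lower than both without *ecd1* replicate 3 (−3.24 against −3.21 and −2.93). *Prosbeta5R2* was measured at 173, 76.7 and 189 normalized counts in *w1118* replicates 1 to 3 and at 18.9, 15.3 and 19.0 in *ecd1*. *Prosbeta5R1* was measured at 155, 136 and 206 in *w1118* and at 22.6, 12.2 and 38.1 in *ecd1*. The genotypes did not overlap in either gene, and *ecd1* held 12.1% of the *w1118* mean for *Prosbeta5R2* and 14.7% for *Prosbeta5R1*. The log2 fold changes were −2.87 (SE 0.39, limma adjusted p = 0.00479) and −2.83 (SE 0.43, adjusted p = 0.00546). *Prosbeta5R2* has 1 coding exon on chromosome arm 2L (17990418 to 17991951, dm6, plus strand), while *Prosbeta5R1* lies on 2R.

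The paralogs of beta4, a ring subunit with no cutting activity, are neighbours. *Prosbeta4R1* (2L, 2653046 to 2653926, dm6) and *Prosbeta4R2* (2L, 2655394 to 2657102) lie on the same strand with 1467 bases between them. *Prosbeta4R1* stood at 133, 114 and 175 normalized counts in *w1118* and at 27.3, 20.6 and 47.6 in *ecd1*. *Prosbeta4R2* stood at 66.6, 42.5 and 74.6 in *w1118* and at 10.4, 7.64 and 13.1 in *ecd1*. Both fell, by 2.17 (SE 0.36, limma adjusted p = 0.0066) and by 2.44 (SE 0.36, adjusted p = 0.00519) on the log2 scale. Per kilobase of exon, *Prosbeta4R1* was 4.56 times as high as *Prosbeta4R2* in *w1118* and 6.10 times as high in *ecd1*.

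The paralogs of beta2, the position with trypsin-like activity, kept more of their level. *Prosbeta2R1* was measured at 91.6, 97.9 and 134 normalized counts in *w1118* and at 22.6, 27.5 and 63.1 in *ecd1*. *Prosbeta2R2* was measured at 339, 310 and 408 in *w1118* and at 88.6, 120 and 217 in *ecd1*. The *ecd1* mean came to 34.9% and 40.2% of the control mean. The log2 fold changes were −1.62 (SE 0.42, limma adjusted p = 0.0253) and −1.40 (SE 0.34, adjusted p = 0.0196).

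The alpha ring has 4 paralogs, and all fell. *Prosalpha3T*, the lowest paralog by mean, was measured at 77.4, 27.1 and 63.9 normalized counts in *w1118* and at 6.60, 3.06 and 15.5 in *ecd1* (log2 fold change −2.71, SE 0.63, limma adjusted p = 0.0176). *Prosalpha4T1* was measured at 72.6, 47.2 and 91.0 in *w1118* and at 13.2, 10.7 and 21.4 in *ecd1* (−2.15, SE 0.39, adjusted p = 0.00806). Its sister *Prosalpha4T2* was higher, at 245, 221 and 337 against 40.5, 41.2 and 97.6 (−2.25, SE 0.39, adjusted p = 0.00715). Per kilobase, *Prosalpha4T1* stood at 0.370 of the level of *Prosalpha4T2* in *w1118* and at 0.356 in *ecd1*. *Prosalpha6T*, which is required for male fertility in *Drosophila*, stood at 233, 156 and 224 in *w1118* and at 49.98, 42.8 and 72.6 in *ecd1*. Its log2 fold change was −1.88 (SE 0.29, limma adjusted p = 0.00555), and its highest *ecd1* sample was below its lowest control.

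In the base, paralogs of the ATPases Rpt3, Rpt4 and Rpt6 were the most abundant paralogs, by count and per kilobase. *Rpt6R* was measured at 593, 879 and 1136 normalized counts in *w1118* and at 180, 164 and 370 in *ecd1*, and it fell by 1.91 on the log2 scale (SE 0.37, limma adjusted p = 0.00989). *Rpt3R* was measured at 709, 866 and 1318 in *w1118* and at 433, 364 and 648 in *ecd1*. It fell by 0.99 (SE 0.30, limma adjusted p = 0.0403), just short of 2-fold. *Rpt4R* was measured at 693, 993 and 1253 in *w1118* and at 514, 592 and 738 in *ecd1*. The groups overlapped between *w1118* replicate 1 and *ecd1* replicate 3, and the log2 fold change of −0.65 (SE 0.25) did not pass, with a limma adjusted p of 0.0824. With the replicate number as a block, *Rpt4R* was called, with a limma adjusted p of 0.0171. DESeq2 also called it, with an adjusted p of 0.0319.

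The remaining paralogs belong to a ubiquitin receptor of the base and to a lid subunit. *Rpn13R*, the paralog of the receptor Rpn13, was measured at 125, 96.7 and 139 normalized counts in *w1118* and at 29.2, 32.8 and 46.4 in *ecd1* (log2 fold change −1.72, SE 0.28, limma adjusted p = 0.00637). *Rpn12R*, the paralog of the lid subunit Rpn12, was measured at 224, 331 and 400 in *w1118* and at 83.9, 98.5 and 214 in *ecd1* (−1.35, SE 0.40, adjusted p = 0.0396). Its highest *ecd1* value lay just under its lowest control value.

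The calls of 5 paralogs rested on particular libraries. Without *w1118* replicate 3, or without *ecd1* replicate 2, 9 paralogs fell in place of 14, while the share of all genes that fell dropped from 19.1% to 12.4% and 11.5%. The calls lost in both cases were those of *Prosalpha3T*, *Prosbeta2R1*, *Prosbeta2R2*, *Rpn12R* and *Rpt3R*, whose limma adjusted p reached at most 0.116 without the first library and 0.133 without the second. *Prosbeta2R1*, for example, was also not called without *w1118* replicate 2 (limma adjusted p = 0.0595) or without *ecd1* replicate 1 (0.0684). Without *w1118* replicate 1, all 15 fell, against 21.0% of all genes.

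Replicates of the same genotype differed in the paralogs together. *ecd1* replicate 3 was the highest *ecd1* sample in 15 of 15 paralogs, at 1.12 to 3.20 times the mean of the other *ecd1* samples (median 1.98). *w1118* replicate 3 was the highest control in 13. The lowest control was replicate 2 in 10 paralogs and replicate 1 in 5. *Rpn12R*, *Rpt3R*, *Rpt4R* and *Rpt6R* stood in *w1118* replicate 1 at 0.588 to 0.650 of the mean of the other controls, while the other 11 paralogs stood at 0.789 to 1.70. These 4 paralogs belong to the regulatory particle and were set apart after their values were seen, and *Rpn13R* of the same particle stood at 1.06.

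Most markers of spermatocytes and spermatids, the cells in which testis genes are transcribed and sperm are built, moved with the paralogs. Of 39 such markers, 38 were in the table and 37 were tested. Limma called 30 as fallen and 0 as risen, against 19.1% and 16.0% of all genes, and the median log2 fold change was −2.24. The 7 not called were *comr*, *vis*, *topi*, *tomb*, *nht*, *Taf12L* and *bol*, from −0.89 (*nht*) to 0.08 (*Taf12L*). At an unadjusted p below 0.05, limma gave 32 as fallen and 0 as risen, and edgeR and DESeq2 also called 0 as risen. *Mst84Dd*, *Mst84Dc* and *Pglym87* had the lowest fold changes among called markers with a mean of at least 50, at −4.19, −3.41 and −3.35. The summed level of the list was 42753, 37671 and 57287 normalized counts in *w1118* and 11599, 10233 and 18526 in *ecd1*. *ecd1* replicate 3 was the highest *ecd1* sample in 36 of the 37 markers and *w1118* replicate 3 the highest control in 33. *aly*, *can* and *sa*, which switch on spermatocyte genes and were singled out after their values were seen, stood in *w1118* replicate 1 at 0.497, 0.436 and 0.494 of the mean of the other controls. Of the rest, *vis* stood lower at 0.388, and *achi*, *mia*, *topi* and *tomb* stood higher at 0.836, 0.766, 0.742 and 0.710. Over the 37 tested markers the same ratio ran from 0.388 to 2.10. For each 100 normalized counts of the marker list, the paralogs summed to 9.19, 11.7 and 10.7 in *w1118* and to 13.3, 15.2 and 14.2 in *ecd1*. This ratio was higher in every *ecd1* sample than in every control. The paralog sum is weighted towards the most abundant paralogs, *Rpt3R*, *Rpt4R* and *Rpt6R*. Of these, *Rpt4R* (−0.65) and *Rpt3R* (−0.99) had the weakest log2 fold changes of all paralogs, so the ratio does not describe each paralog. The part of germ cell number in the decrease was not tested.

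**Figure D2:**
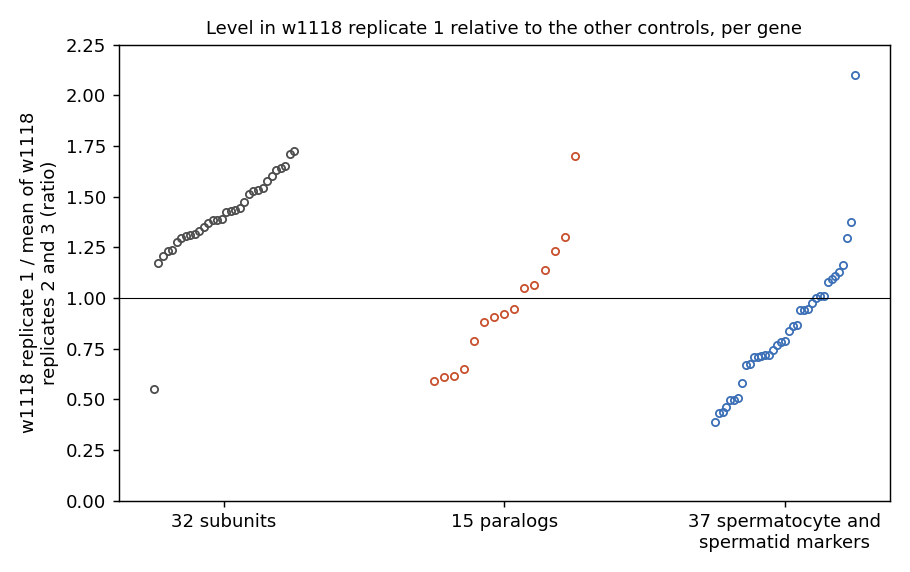
Ratio of the normalized count in *w1118* replicate 1 to the mean of *w1118* replicates 2 and 3, 1 point per gene, for the 32 subunits, the 15 paralogs and the 37 tested spermatocyte and spermatid markers. The subunits lie above 1 apart from Prosalpha1 at 0.553, whereas paralogs and markers lie on both sides of 1.

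Markers of earlier germ cells, of males and of ovaries were read beside these. Of 10 early germline markers, limma called 1 as fallen and 0 as risen, against 19.1% and 16.0% of all genes. There was no riser at an unadjusted p below 0.05 or by edgeR or DESeq2. The one called was *bgcn*, which acts in germ cells that leave the stem cell state (log2 fold change −1.57, SE 0.36, limma adjusted p = 0.0162). Its limma adjusted p rose to between 0.0522 and 0.0602 when replicate 3 of *w1118*, or replicate 1 or 2 of *ecd1*, was left out. Leaving out *w1118* replicate 1 gave 2 early markers that fell, against 21.0% of all genes. The median of the list was −0.30. *roX2*, a non-coding RNA of dosage compensation on the male X chromosome, stood at 681, 1044 and 1619 normalized counts in *w1118* and at 332, 255 and 475 in *ecd1* (−1.61, SE 0.36, adjusted p = 0.0150). The other dosage compensation RNA, *roX1*, gave −0.50 (SE 0.33, adjusted p = 0.281). *roX2* was not called without *ecd1* replicate 2 (limma adjusted p = 0.0579), and both RNAs fell without *w1118* replicate 1. The share of males among the pooled larvae was not tested. Of 6 ovary and egg markers, *osk*, *Vm26Aa* and *Cp36* stood at or near 0 in every sample, and 2 were high enough to test. Limma and edgeR called neither of these, and 1 had an unadjusted p below 0.05 in limma. DESeq2 called 1 as risen, against 19.7% of all genes.

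The widely expressed subunits stood far above the paralogs, and few were called. Per kilobase of exon, their means lay between 4427 and 11630 normalized counts in *w1118*, while the paralogs lay between 37.2 and 664. Of the 32 subunits, limma called 1 as risen and 0 as fallen, against the 16.0% and 19.1% of all genes, and none passed with a change of at least 2-fold, against 5.10% of all genes that rose. At an unadjusted p below 0.05, which more genes pass, limma gave 4 as risen and 1 as fallen. The edgeR test called 1 as risen and 0 as fallen, against 17.4% and 18.5% of all genes. DESeq2 called 1 and 1, against 19.7% and 22.7%. The *ecd1* samples lay above every control in 3 subunits, *Prosbeta4*, *Prosbeta5* and *Prosbeta6*, against 26.7% of all genes. They lay below every control in 1 subunit, *Prosalpha1*. The median log2 fold change was 0.15.

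**Figure D3:**
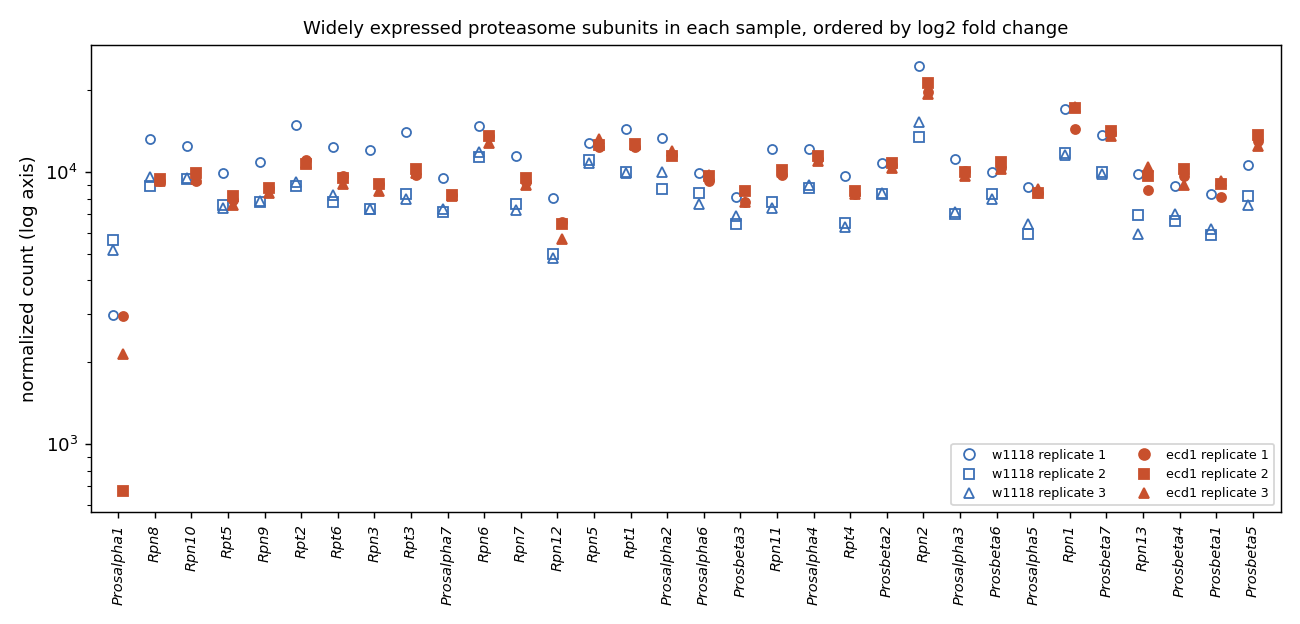
Normalized counts (log axis) of the 32 widely expressed subunits in each sample, ordered by log2 fold change. *w1118* replicate 1, the open circle, is the highest control in 31 of 32, and *Prosalpha1* at the left is the exception.

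*Prosbeta5*, the chymotrypsin-like subunit, was the subunit that rose. It was measured at 10635, 8207 and 7550 normalized counts in *w1118* and at 12982, 13652 and 12469 in *ecd1*, with no overlap. The log2 fold change was 0.58 (SE 0.14, limma adjusted p = 0.0192). The call was lost when replicate 2 or 3 of *w1118*, or replicate 1 or 2 of *ecd1*, was left out, with limma adjusted p-values of 0.0508 to 0.0742. The subunit therefore rose while both of its paralogs fell. *Prosbeta1*, the caspase-like subunit, had the second highest value at 0.39 (SE 0.15, limma adjusted p = 0.0834), and *Rpn8* of the lid the second lowest at −0.16 (SE 0.15, adjusted p = 0.445).

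By position in the complex, the median log2 fold change was 0.33 for the 7 beta subunits, 0.15 for the 7 alpha subunits, 0.26 for the 4 Rpn subunits of the base, 0.09 for the 8 of the lid and 0.03 for the 6 ATPases. All 7 beta values were above 0, from 0.17 to 0.58. The positions were not tested against each other. Reads of overlapping genes on opposite strands were not separated, and among the members this touches *Rpt6* most, which shares 182 exon bases with *CG1801*.

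The controls disagreed in the subunits. *w1118* replicate 1 was the highest control in 31 of 32, at 1.17 to 1.72 times the mean of the other controls in these 31. *Rpt3*, for example, was measured at 14051, 8346 and 7948 normalized counts in *w1118* and at 9802, 10287 and 9952 in *ecd1*. The *ecd1* samples fell between the control values. In *ecd1* the coefficient of variation was 0.422% to 10.3% over the 31 subunits, while in *w1118* it was 9.41% to 33.8%. Over all genes tested, *w1118* replicate 1 had a Spearman correlation of 0.973 and 0.974 with the other controls, which gave 0.995 between them. Its departure was therefore not limited to the subunits. *w1118* replicate 1 is also the library with the high glue genes, and the part of larval age or stage was not tested.

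Without *w1118* replicate 1, 24 subunits rose and 0 fell in limma, against 19.0% and 21.0% of all genes. At an unadjusted p below 0.05, which more genes pass, 27 rose and 1 fell. The 24 called log2 fold changes ran from 0.24 to 0.73, and the median of the 32 was 0.33. All *ecd1* samples then lay above both controls in 29 subunits, against 34.7% of all genes. All 7 beta subunits were among those called, as were 5 of 7 alpha subunits, 5 of 6 ATPases, 3 of 4 Rpn subunits of the base and 4 of 8 of the lid. A modest rise of the subunits therefore appeared or vanished with a single control library, whereas the decrease of the paralogs was seen with and without it.

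*Prosalpha1* stood apart from the other subunits. It was measured at 2985, 5630 and 5174 normalized counts in *w1118* and at 2966, 676 and 2147 in *ecd1*. The lowest *ecd1* value was 4.39-fold below the highest, while in the other 31 subunits this ratio was at most 1.21. The log2 fold change was −1.44 (SE 0.55, limma adjusted p = 0.0815), and it moved to −0.81 without *ecd1* replicate 2. DESeq2 called it as fallen, with an adjusted p of 0.0263. A neighbouring gene listed as *CG30382*, whose current name is *Prosalpha1R*, lies 1734 bases away on the same strand of 2R (7830413 to 7831771, dm6, minus strand). Its symbol kept it out of the 47 members. It was measured at 29.8, 93.2 and 39.3 in *w1118* and at 27.3, 8.40 and 24.98 in *ecd1* (−1.36, SE 0.60, limma adjusted p = 0.119). Like *Prosalpha1*, it was highest in *w1118* replicate 2 and lowest in *ecd1* replicate 2, and it held 0.760% to 1.66% of the count of *Prosalpha1* in each sample. The pair are regarded as close copies, whose sequences were not compared here, so reads may be shared or lost between them and both levels are uncertain.

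**Figure D4:**
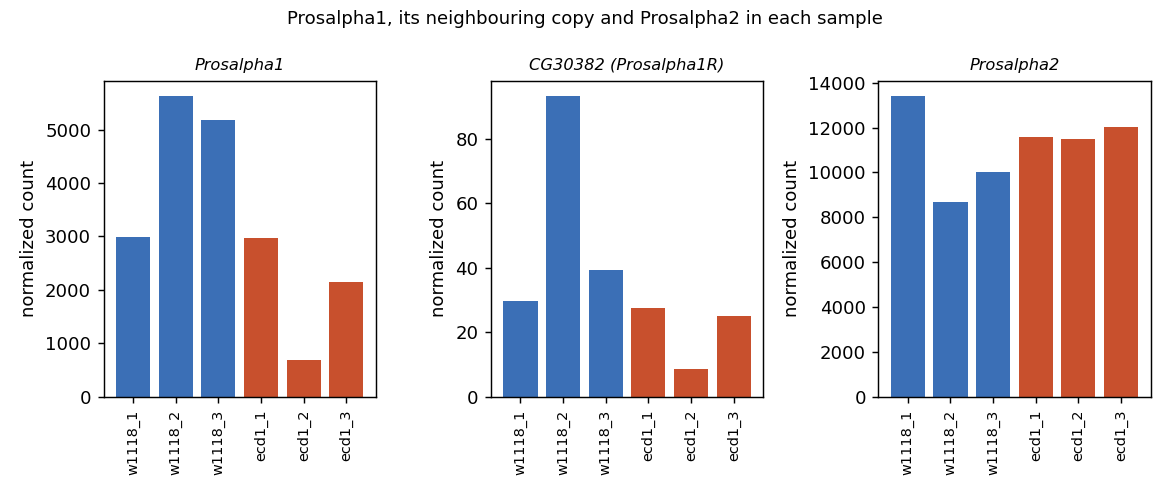
Normalized counts of Prosalpha1, of its neighbouring copy CG30382 and, for comparison, of Prosalpha2 in each sample, 1 bar per sample, each panel with its own axis from 0. The first pair are highest in *w1118* replicate 2 and lowest in *ecd1* replicate 2, whereas Prosalpha2 is lowest in *w1118* replicate 2.

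Each paralog was next set against its parent in the same sample. The log2 ratio of paralog to parent was lower in *ecd1* for all 15 pairs, by −3.46 for *Prosbeta5R2* to −0.84 for *Rpt4R*, with a median of −2.08. In 12 pairs every *ecd1* ratio was below every control ratio, with p = 0.1 in the exact two-sided permutation test, the smallest that 3 samples against 3 allow, and 0.125 after adjustment over the 15 pairs. The pairs of *Rpn12R*, *Rpt3R* and *Rpt4R* overlapped, each with an exact permutation p of 0.2. In all 15 pairs, the *ecd1* ratio was below that of the control with the same replicate number in 3 of 3 numbers. In the 12 pairs without overlap any matching of samples gives this, so it adds nothing there. Only the pairs of *Rpn12R*, *Rpt3R* and *Rpt4R* could have differed, and the matching itself was taken from these data. For *Rpt4R* the differences by replicate number were −0.21, −1.14 and −1.18.

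**Figure D5:**
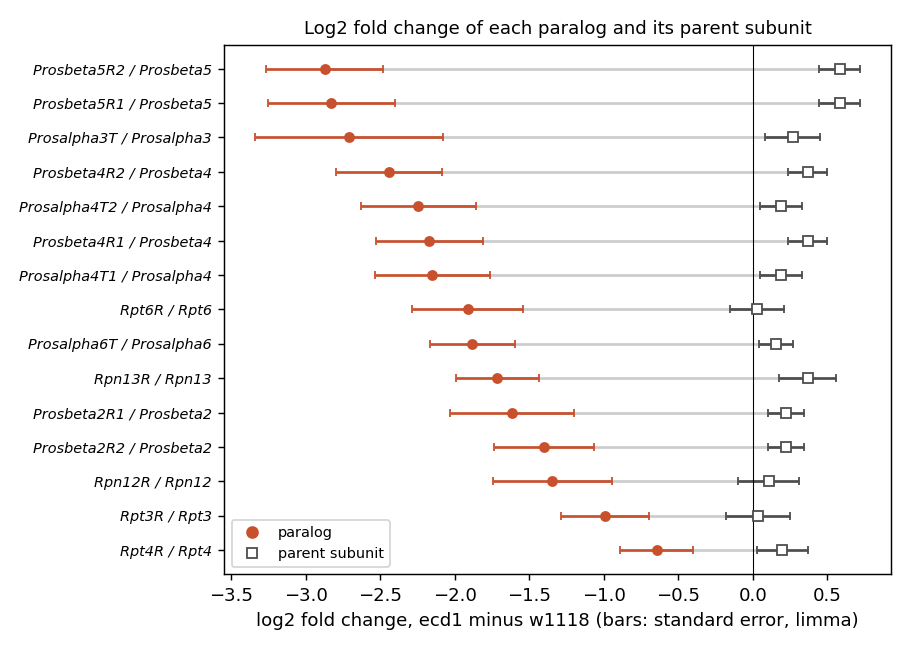
Log2 fold change (*ecd1* minus *w1118*) of each of the 15 paralogs and of its parent subunit, with standard errors from limma. Paralogs run from −2.87 to −0.65 and their parents from 0.03 to 0.58.

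The paralog's share of a pair, per kilobase of exon, gives the size of this shift. *Rpt4R* made up 11.9% ± 4.97 of the sum of *Rpt4R* and *Rpt4* in *w1118* and 6.64% ± 1.16 in *ecd1* (SD, n = 3 each). *Rpt6R* made up 8.72% ± 3.82 and 2.41% ± 1.21. *Prosbeta5R2* made up 1.23% ± 0.567 and 0.101% ± 0.0161. The shares of all paralogs lay between 0.402% and 11.9% in *w1118* and between 0.0539% and 6.64% in *ecd1*. Over all 47 members, the paralogs held 1.10%, 1.67% and 2.30% of the level per kilobase in *w1118* and 0.460%, 0.452% and 0.799% in *ecd1*. The shares of the genotypes did not overlap.

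Paralogs and parents also differed in gene structure, which the selection did not use. In the annotation, 6 of the 15 paralogs had 1 coding exon, compared with 1 of their 11 parents. In 10 of 15 pairs the paralog had fewer coding exons than its parent, and in 10 it lay on another chromosome arm. *Prosalpha6T*, for example, has 1 coding exon and *Prosalpha6* has 3, and the predicted proteins are 289 and 279 residues long. The paralogs *Rpt4R* and *Rpt3R*, with the weakest fold changes, have 2 coding exons each.

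Few other genes of the pathway passed the test, to be read beside the 16.0% of all genes that rose and the 19.1% that fell in limma. In edgeR 17.4% of all genes rose and 18.5% fell, and in DESeq2 19.7% and 22.7%. Of 7 genes for proteasome assembly, activation and associated factors, 6 were in the table and limma called 1 as risen and 0 as fallen, with 1 and 1 at an unadjusted p below 0.05. DESeq2 called 1 as risen and 1 as fallen, and edgeR called 0 in either direction. The gene called by limma was *REG*, which encodes an activator that caps the core. *REG* was measured at 7361, 7311 and 6506 normalized counts in *w1118* and at 8735, 8677 and 8209 in *ecd1* (log2 fold change 0.28, SE 0.09, limma adjusted p = 0.0498). The samples did not overlap, but the call was lost with the replicate block (adjusted p = 0.0773), in edgeR (adjusted p = 0.0589) and without any single library other than *w1118* replicate 1. None of 7 regulators of proteasome genes, which include the transcription factor *cnc*, was called by limma or edgeR. In limma 1 of them fell at an unadjusted p below 0.05, and DESeq2 called 1 as fallen. None of 10 ubiquitin genes and E1 and E2 enzymes was called by limma, edgeR or DESeq2, and 0 had an unadjusted p below 0.05 in limma. The same held for the 5 shuttle factors in the table.

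Genes of the ubiquitin system with a role in sperm maturation fell in part. *soti*, an inhibitor of the Cul3 ubiquitin ligase in spermatids, stood at 532, 379 and 616 normalized counts in *w1118* and at 75.4, 55.8 and 111 in *ecd1* (log2 fold change −2.67, SE 0.31, limma adjusted p = 0.0037). *ntc*, an F-box protein of the same process, stood at 444, 488 and 636 in *w1118* and at 192, 152 and 217 in *ecd1* (−1.48, SE 0.21, adjusted p = 0.00511). *Cul3*, which is used in many tissues, gave −0.14 (SE 0.08, adjusted p = 0.223). *Roc1b* and *klhl10* were listed at 0 in all samples. *Uch-L5R*, a paralog of the proteasome-associated deubiquitinase gene *Uch-L5*, was looked up after its values were seen, and stood at 98.8, 72.0 and 142 in *w1118* and at 36.8, 41.2 and 64.2 in *ecd1*. Its log2 fold change was −1.11 (SE 0.35, limma adjusted p = 0.0471), compared with −0.42 (SE 0.14, adjusted p = 0.0581) for *Uch-L5*. *Uch-L5* was called as fallen with the replicate block (limma adjusted p = 0.0474), by DESeq2 (adjusted p = 0.0278) and without *w1118* replicate 1 (limma adjusted p = 0.0491). The call of *Uch-L5R* was lost when 1 of 4 libraries was left out, namely replicates 1 and 3 of *w1118* and replicates 1 and 2 of *ecd1*, with limma adjusted p-values of 0.0734 to 0.144.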

How the data were processed

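RNA of whole larvae was sequenced as 100-base read pairs in 6 samples, 3 per genotype. The authors aligned the reads with TopHat2 2.0.10 to dm6 and counted them per gene with featureCounts 1.6.4, with settings for strand and for shared reads not given in the sources used here. The deposited normalized counts are a signal per gene, a count divided by 1 DESeq2 size factor per sample. In them, 100% of the values above 0 were whole reads within 0.05 of a read. The deposited quality report gives the fraction of reads on 1 strand, close to 0.50 in each sample, so overlapping genes on opposite strands cannot be told apart. It also gives the insert size. Fold changes, p-values, enrichments and splicing tables of the authors were not used, and 0 columns of per-sample values were left unassigned.

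Genotypes were compared with limma 3.58.1 (R 4.3.3, variance trend), a pseudocount of 1, a minimum mean normalized count of 10 and Benjamini-Hochberg adjustment over 12930 genes. The fit was also run on simulated data, with far fewer changed genes than were called here, and no result rests on that run. Fold changes on this scale understate those of low genes. The alternatives were pseudocounts of 0.5 and 5, no filter, TMM scaling, no trend, edgeR 4.0.16 and DESeq2 1.42.0 on recovered reads, a replicate block and leaving out each sample. edgeR called 4641 genes and DESeq2 called 5483. Ratios were tested with scipy 1.17.1.

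Samples of equal replicate number deviated together from their genotype means (r = 0.209, 0.232 and 0.225 across genes), unlike others (−0.274 to 0.0541). Deviations within a genotype sum to 0 for each gene, so positive values at equal numbers pull the others down. The low values of the others are thus no separate support for pairs. From the equal-number values, the numbers were taken as pairs in the replicate block and in the comparison of ratios by replicate number. The main limma fit and the permutation test did not use the pairs. The pairing comes from these values, since no source says what a number stands for.

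Members, lists and rules were chosen with earlier results of these data known. All paralogs were named, and of the subunits the parents, those called and the 2 highest and 2 lowest. Of other lists, up to 3 called members with the largest change and a mean of at least 50 were named, with *ecd*. Other names were chosen after their values were seen. Positions come from Ensembl release 115. The planned display of promoters and proteins was not run. P-values measure the spread between these samples, which were made from pools of larvae.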

Additional observations from a re-analysis of the deposited data

How the results depend on the processing

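Leaving out 1 sample at a time, 9 to 15 paralogs fell and 0 to 24 subunits rose, while 11.5% to 21.0% of all genes fell and 6.83% to 19.0% rose. DESeq2 called 1 subunit as fallen, where limma called 0. The median log2 fold change ran from −2.28 to −1.72 in the paralogs and from 0.07 to 0.33 in the subunits over the same omissions. The sign turned under at least 1 alternative in 11 of the 32 subunits, none of them called, and in 0 paralogs. Among the subunits named with a value, and over the omissions, *Rpn12* ran from −0.0232 to 0.34, *Rpn8* from −0.27 to 0.0122, *Rpt3* from −0.11 to 0.30 and *Rpt6* from −0.10 to 0.24. DESeq2 gave −0.0167 for *Rpt3* and −0.00603 for *Rpt6*, where limma gave 0.04 and 0.03. The replicate block changed 6 calls among the 138 tested genes of the members and lists. *Rpt4R* (adjusted p = 0.0171, limma), *Uch-L5* and the spermatocyte markers *comr*, *nht* and *topi* were called as fallen with it, and *REG* was not called. The block gave 15 paralogs that fell and 1 subunit that rose, against 21.0% of all genes that fell and 15.5% that rose. No other scaling moved the median of all genes by more than 0.1. With 3 samples per genotype, a change of the subunits within the spread of the controls was not detectable. Depth limits *Prosalpha3T* most among the members, with 3.06 normalized counts in *ecd1* replicate 2.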
